A study of Mus musculus with 6 samples.

Results

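The genes described here are the ligands, receptors and Smad proteins of the transforming growth factor beta (TGF-beta) and bone morphogenetic protein (BMP) pathway. They were taken by gene symbol: the Bmp genes with a number, the Bmpr, Tgfb, Tgfbr, Acvr, Inha, Inhb and numbered Gdf genes and the numbered Smad genes, without 1 Gdf gene that the rule leaves out. The patterns found 45 of the 18194 genes named on the array, and 34 of them were among the 14550 genes tested. Gene expression had been measured in sciatic nerves taken on postnatal day 2 from pups of a mixed strain, after removal of the perineurium (the sheath around the nerve), with 1 Affymetrix Mouse Genome 430 2.0 array per sample. In the 3 double knockout samples (dKO; genotype DhhCre+ HDAC1-2 dKO, labelled with peripheral hypomyelination) both histone deacetylase genes Hdac1 and Hdac2 had been deleted in Schwann cells, the glial cells that form peripheral myelin. The Cre recombinase is driven by Dhh, the desert hedgehog gene of the Schwann cell lineage, and cells of the nerve without Cre activity keep both genes. The 3 control samples were littermates without the Cre (DhhCre–), and whether they carry the conditional alleles is not stated in the labels. No label says how many pups or nerves went into a sample, and the spread behind each p-value, which is that between these samples, may be technical.

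TGF-beta family ligands bind pairs of type II and type I receptor kinases at the cell surface, and the type I receptor then phosphorylates receptor-regulated Smad proteins. TGF-betas and activins signal mainly through Smad2 and Smad3, BMPs mainly through Smad1, Smad5 and Smad9, and each of these Smads enters the nucleus with the common partner Smad4, while Smad6 and Smad7 inhibit the pathway. In peripheral nerve, TGF-beta is known to influence the proliferation, survival and myelination of Schwann cells, and BMP signalling is known to oppose their myelinating differentiation.

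Values are log2 expression of 1 probe set per gene, listed in the order of replicates 1, 2 and 3 of each group. Changes are dKO minus control, with the standard error (SE) and the adjusted p of limma, corrected with Benjamini-Hochberg over all 14550 genes, and a gene was called at an adjusted p under 0.05. Each group has n = 3, which limits the precision, and a log2 value under 4 was treated as too low to be read as a level. Hdac1 read 10.48, 10.38 and 10.36 on the control arrays and 8.75, 8.96 and 8.85 on the dKO arrays, and Hdac2 read 12.34, 12.33 and 12.33 on the control arrays and 11.22, 10.81 and 11.19 on the dKO arrays, so both deleted genes were lower on every dKO array. dKO 3 lay farther from its group than the other dKO arrays for 52.1% of all genes tested, and control 1 for 42.1% among the controls. Where leaving out a single array changed the call of a member, its values without that array are given. RNA came from the whole nerve sample, so a change in the number of cells of a type and a change in RNA per cell cannot be told apart.

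Deletion of both deacetylases was accompanied by higher levels of Smad3, the TGF-beta ligand gene Tgfb2 and the BMP ligand gene Bmp6, with smaller differences in the BMP receptor gene Bmpr2 and the ligand gene Gdf10. Smad3 rose 3.15-fold, Bmp6 2.5-fold and Tgfb2 2-fold, each on the probe set with the highest mean. With probe sets averaged, the log2 change of Smad3 was 1.05. No member was called lower. In all, 5 of the 34 tested members (14.7%) were called, against 22.0% of all genes tested, and all 5 were higher in dKO, against 12.6% of all genes called higher and 9.38% called lower. The share of members called was thus no larger than that of genes in general. It includes Gdf10, which was tested only because its dKO arrays reached the limit of 4. At an unadjusted p under 0.05, 11 members were higher and 3 lower, against 19.5% and 14.7% of all genes. The groups did not overlap for 15 members (44.1%, against 40.9% of all genes), of which 11 were higher in dKO (22.6% of all genes) and 4 lower (18.4% of all genes). Gdf10 is among the 11 and Gdf3 among the 4. Each of these genes reached the limit of 4 in only 1 group, so its separation was fixed by the limit. The median log2 change of the tested members was 0.23, and that of all genes tested was 0.0063. The deposited medians are equal over all probe sets. With the arrays also set to equal medians over the 14550 tested genes, 3 members were called higher and 1, Gdf3, lower, against 11.0% and 11.3% of all genes. Without control 1, dKO 1 or dKO 2, the members called higher numbered 3, 2 and 3. Over 12 alternative settings, Smad3 and Tgfb2 stayed called in every setting, whereas the calls of Bmp6, Bmpr2 and Gdf10 were lost in some of them.

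**Figure D1:**
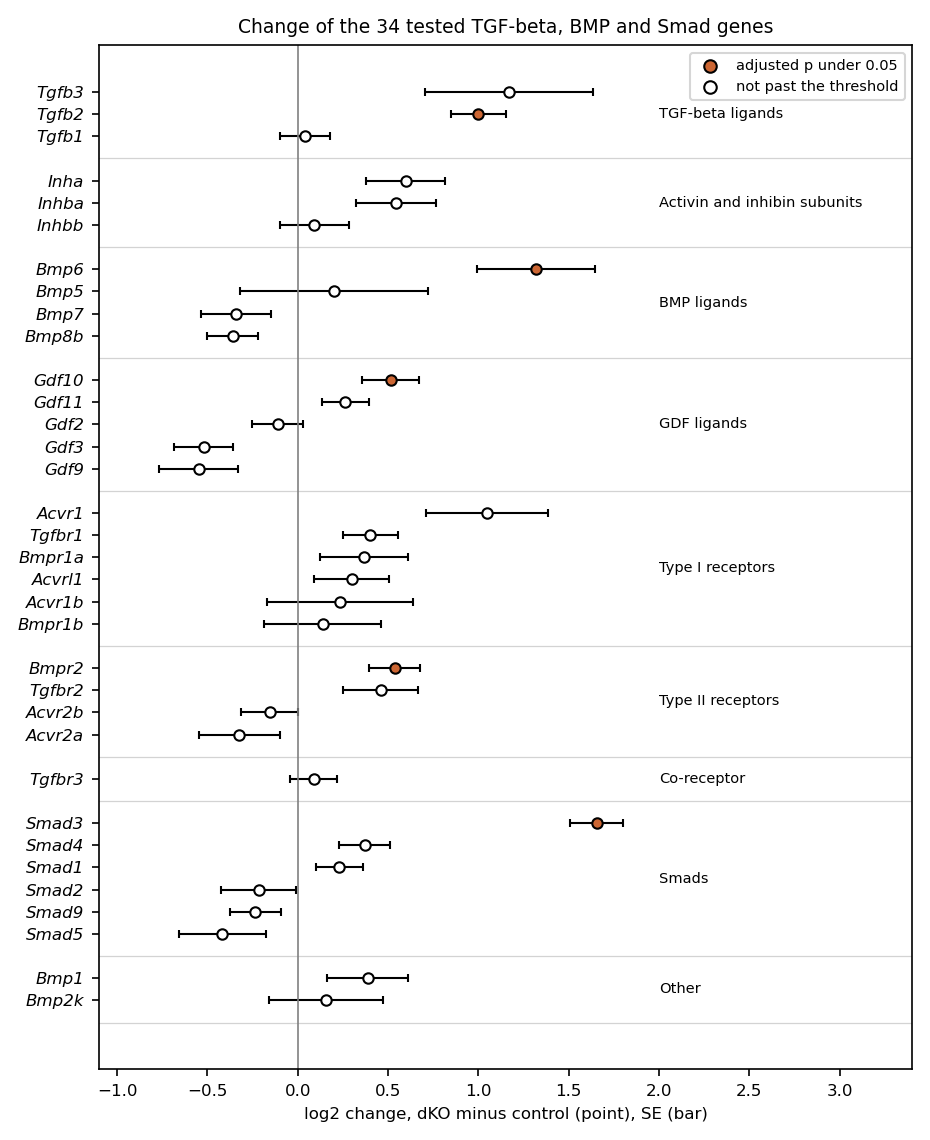
Change of each of the 34 tested genes between dKO and control nerves, as log2 change on the horizontal axis, grouped by role. Points are fitted changes and bars their SE (n = 3 per group), and filled points passed an adjusted p under 0.05. The 5 filled points, Smad3, Bmp6, Tgfb2, Bmpr2 and Gdf10, all lie above 0.

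Markers of several other cells of the nerve differed between the groups too. Of all genes tested, 12.6% were called higher and 9.38% lower, and the marker counts are to be read beside these shares. Of 8 fibroblast markers, 4 rose and 0 fell, and their summed level, given as log2 of the sum of linear values, was 14.68 to 14.81 in control and 14.97 to 15.03 in dKO. For macrophages, 3 of 9 markers rose and the sum was 11.09 to 11.51 in control and 11.79 to 12.89 in dKO, highest in dKO 3. Pericyte and smooth muscle markers (3 of 8 higher) summed to 11.47 to 11.59 and 11.89 to 12.33, and perineurial markers (2 of 5 higher, 1 lower) to 10.62 to 10.65 and 11.11 to 11.42. The perineurium had been removed from these nerves, and how much of it was left on each sample was not tested. Of 9 endothelial markers 0 were called with limma, with 3 at an unadjusted p under 0.05, and the sum was 10.25 to 10.61 in control and 10.66 to 11.16 in dKO. Control 1 had the lowest fibroblast, endothelial, pericyte and adipocyte sums of the 6 arrays, but the highest macrophage and skeletal muscle sums of the controls. Control 3 had the lowest perineurial and neuronal sums. The values of Acvr1, Tgfb3 and Bmp6 were lowest in control 1, and a link to these sums was not tested. The 7 Schwann cell markers tested were split, with 2 higher and 2 lower, and their sum was 12.98 to 13.31 in control and 12.56 to 12.77 in dKO. Of 7 neuronal markers 1 rose (sums of 10.40 to 10.90 and 10.96 to 11.31), of 5 skeletal muscle markers 1 rose (7.17 to 7.68 and 7.53 to 7.79), and of 2 adipocyte markers 1 rose (9.71 to 11.11 and 12.35 to 13.11). The defining markers Isl1, Myog and Adipoq of neurons, muscle and adipocytes were under the limit on all 6 arrays, and the perineurial marker Msln reached it only on control 3. The part of these cells in the results for Smad3, Tgfb2, Bmp6 and the other genes was not tested.

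Of the TGF-beta ligand genes, Tgfb2 rose and Tgfb1 and Tgfb3 did not pass the test. Tgfb2, which encodes a secreted TGF-beta held latent in the matrix, read 6.05, 6.30 and 6.45 on the control arrays and 7.35, 7.27 and 7.18 on the dKO arrays (log2 change 0.999, SE 0.15, adjusted p = 0.00271). All dKO values were above all control values, by at least 0.73, and the adjusted p stayed at or under 0.0137 with any array left out. Tgfb3, which encodes another TGF-beta, read 5.15, 6.68 and 7.20 on the control arrays and 7.54, 7.83 and 7.17 on the dKO arrays (log2 change 1.17, SE 0.47, adjusted p = 0.115). Control 1 was far below the other controls, and the highest control exceeded the lowest dKO array. Without control 3 the Tgfb3 change was 1.60 and was called (adjusted p = 0.0356), and without control 1 it was 0.57. Tgfb1, which encodes the founding ligand of the family, read 4.51, 4.42 and 4.29 on the control arrays and 4.35, 4.43 and 4.57 on the dKO arrays (log2 change 0.041, SE 0.14, adjusted p = 0.863). Its values in both groups overlapped close to the low-value limit. The sign of its change turned without control 3 (-0.019) or dKO 3 (-0.019). It also turned when the arrays were set to equal medians over the tested genes (-0.035). A second tested Tgfb1 probe set changed by 0.51 (adjusted p over all probe sets = 0.291), with dKO 2 highest at 5.27. With probe sets averaged, the Tgfb1 change was 0.28 (adjusted p = 0.282).

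Activins are dimers of inhibin beta chains, and the alpha chain Inha turns them into inhibins. Of the 5 subunit genes, Inha, Inhba and Inhbb were tested and Inhbc and Inhbe were under 4 on all 6 arrays. Inhba, which encodes the chain of activin A, read 5.29, 4.84 and 5.69 on the control arrays and 5.76, 6.003 and 5.69 on the dKO arrays (log2 change 0.55, SE 0.22, adjusted p = 0.122). The lowest dKO value, 5.693, lay just above the highest control value, 5.691, and the change was called without control 3 (0.75, adjusted p = 0.0417). It was 0.33 without control 2 (adjusted p = 0.316) and 0.20 with its probe sets averaged (adjusted p = 0.341). That average includes its only other probe set, which was under 4 on every array. Inha read 4.47, 4.83 and 4.05 on the control arrays and 4.79, 5.18 and 5.17 on the dKO arrays (log2 change 0.60, SE 0.22, adjusted p = 0.0913). Control 2 lay above dKO 1, and without control 2 the change of Inha was 0.79 and was called (adjusted p = 0.0488). Inhbb, the chain of activin B, read 4.25, 3.57 and 3.91 on the control arrays and 4.02, 3.87 and 4.12 on the dKO arrays, around the limit of 4 (log2 change 0.091, SE 0.19, adjusted p = 0.775). The change of Inhbb was -0.078 without control 2, the lowest array.

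Among the BMP ligands, Bmp6 rose while Bmp5, Bmp7 and Bmp8b did not pass the test. Bmp2, Bmp4, Bmp10 and Bmp15 were under 4 on all 6 arrays, and Bmp8a reached 4 on 2 of the 6. Bmp6, best known for its part in iron control and in bone, read 4.53, 5.56 and 5.98 on the control arrays and 6.63, 6.74 and 6.66 on the dKO arrays (log2 change 1.32, SE 0.33, adjusted p = 0.0222). The dKO arrays lay within 0.11 of each other and above every control, while the controls spread over 1.45 with control 1 lowest. The change was 0.91 without control 1 and still called (adjusted p = 0.0139). It was not called without dKO 1, dKO 2 or dKO 3 (changes of 1.34, 1.29 and 1.33, adjusted p = 0.0589, 0.0688 and 0.0594). Bmp5, a ligand of skeletal and limb development, read 6.31, 6.16 and 6.52 on the control arrays and 5.38, 6.37 and 7.84 on the dKO arrays (log2 change 0.20, SE 0.52, adjusted p = 0.819). The dKO arrays of Bmp5 ran from below all controls in dKO 1 to above all controls in dKO 3, and without dKO 3 the change was -0.46. Its other probe sets also read highest in dKO 3, at 6.50 and 6.99. Bmp7, a ligand needed for kidney and eye development, read 5.89, 6.39 and 6.03 on the control arrays and 5.70, 5.54 and 6.04 on the dKO arrays (log2 change -0.34, SE 0.19, adjusted p = 0.25), with the groups overlapping. Its other tested probe set changed by 0.10, and with probe sets averaged the Bmp7 change was -0.22 (adjusted p = 0.303). That average also includes a probe set that reached 4 only on control 2. Bmp8b, known for its part in brown fat and the germ line, read 5.06, 5.08 and 5.25 on the control arrays and 4.66, 4.75 and 4.91 on the dKO arrays (log2 change -0.36, SE 0.14, adjusted p = 0.109), and all 3 dKO arrays lay below the controls.

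The growth and differentiation factor (GDF) genes read close to the limit of 4. Gdf10, a ligand also called BMP3B, was under the limit on all control arrays (3.80, 3.80 and 3.56) and just above it on the dKO arrays (4.45, 4.14 and 4.11). Set against that limit, dKO levels of Gdf10 were at least 1.18-fold higher (fitted change adjusted p = 0.0484). The call of Gdf10 was lost with every array left out except dKO 3, with adjusted p values up to 0.153 (without control 1 0.081, control 2 0.0947, control 3 0.153, dKO 1 0.15 and dKO 2 0.0886), and with equal medians over the tested genes (0.0960). Gdf3, a ligand of the early embryo, went the other way, from 4.17, 4.41 and 4.26 in control to 3.79, 3.50 and 3.98 in dKO, where no array reached the limit. That makes Gdf3 at least 1.21-fold lower, not past the threshold (adjusted p = 0.0564), and called without dKO 3 (0.0333) and with equal medians over the tested genes (0.0245). Gdf9, an oocyte factor, read 5.14, 4.54 and 4.70 on the control arrays and 4.36, 3.89 and 4.48 on the dKO arrays (log2 change -0.55, SE 0.22, adjusted p = 0.111), with all dKO arrays below the controls. Gdf11, which is closely related to myostatin, read 4.51, 4.69 and 4.66 on the control arrays and 4.89, 4.94 and 4.83 on the dKO arrays (log2 change 0.26, SE 0.13, adjusted p = 0.195), with all dKO arrays above them. Gdf2, an endothelial ligand also called BMP9, overlapped between the groups (log2 change -0.11, SE 0.14, adjusted p = 0.615). Gdf5 was under 4 on all 6 arrays.

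**Figure D2:**
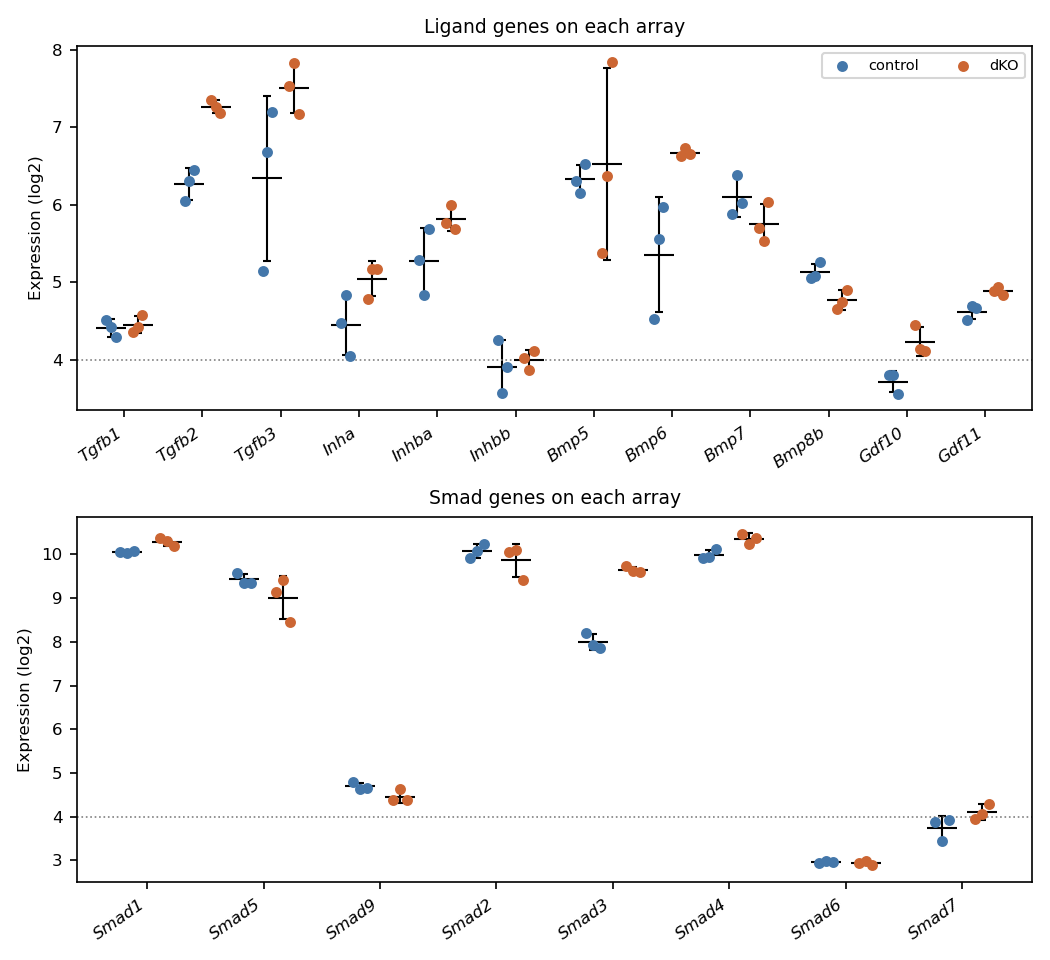
Log2 expression of 12 ligand genes (top) and the 8 Smad genes (bottom) on each array, with control in blue and dKO in orange. Points are arrays, horizontal marks group means and bars SD (n = 3), and the dotted line is the low-value limit of 4. Smad3 and Tgfb2 are separated between the groups by more than their spread, while control 1 is low for Tgfb3 and Bmp6 and the dKO arrays of Bmp5 run from 5.38 to 7.84.

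All 6 tested type I receptor genes had positive changes, against 50.6% of all genes tested. With limma 0 of them were called (2 at an unadjusted p under 0.05). Other tested probe sets of Acvr1b and Tgfbr1 had changes of -0.22 and -0.0057, so the shared sign depends on the probe set used. The type I receptors are the kinases that select the Smads. Acvr1, which encodes the BMP receptor ALK2, read 6.38, 7.43 and 7.78 on the control arrays and 8.07, 8.56 and 8.09 on the dKO arrays (log2 change 1.05, SE 0.34, adjusted p = 0.0607). All dKO values lay above the controls, but the controls spread from 6.38 to 7.78 with control 1 lowest. Without control 3 the change was 1.34 and was called (adjusted p = 0.0248), and without control 1 it was 0.64 (adjusted p = 0.0892). Acvr1 was also called with its probe sets averaged (0.79, adjusted p = 0.0128) and with the replicate number as a block (adjusted p = 0.0403). Tgfbr1, the TGF-beta type I receptor gene (ALK5), read 9.43, 9.42 and 9.57 on the control arrays and 10.08, 9.89 and 9.66 on the dKO arrays (log2 change 0.40, SE 0.15, adjusted p = 0.102), with all dKO values higher. Without dKO 3 it was called (0.51, adjusted p = 0.0446), and with its probe sets averaged the change was 0.21 (adjusted p = 0.42). Bmpr1a, the widely expressed BMP receptor gene ALK3, read 10.78, 10.52 and 11.01 on the control arrays and 11.41, 11.40 and 10.60 on the dKO arrays (log2 change 0.37, SE 0.25, adjusted p = 0.333). dKO 1 and dKO 2 were above all controls and dKO 3 was among them, and without dKO 3 the change was 0.64 and was called (adjusted p = 0.0456).

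The remaining type I receptor genes overlapped between the groups. Acvr1b, the activin receptor ALK4, read 7.20, 7.33 and 5.997 on the control arrays and 6.81, 6.65 and 7.78 on the dKO arrays (log2 change 0.24, SE 0.40, adjusted p = 0.722). Control 3 was the lowest and dKO 3 the highest of the 6 arrays, and the change was -0.19 without control 3 and -0.11 without dKO 3. Acvrl1, the endothelial receptor ALK1, read 5.92, 5.25 and 5.65 on the control arrays and 5.64, 6.08 and 5.99 on the dKO arrays (log2 change 0.30, SE 0.21, adjusted p = 0.348). Bmpr1b (ALK6), a BMP receptor of cartilage, read 4.46, 3.90 and 5.003 on the control arrays and 4.56, 5.09 and 4.11 on the dKO arrays (log2 change 0.14, SE 0.32, adjusted p = 0.8), near the limit in both groups, and its change was -0.14 without control 2 and -0.12 without dKO 2. Acvr1c (ALK7) was under 4 on all 6 arrays.

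Of the type II receptor genes, which encode the kinases that activate type I receptors, Bmpr2 rose. Bmpr2, the main type II receptor for BMPs, read 10.57, 10.50 and 10.41 on the control arrays and 11.13, 10.85 and 11.11 on the dKO arrays (log2 change 0.54, SE 0.14, adjusted p = 0.0298). Every dKO array was above every control, with a gap of 0.28 between the groups. The size of the Bmpr2 change stayed between 0.49 and 0.63 with any array left out, but it was called only without dKO 2 (adjusted p = 0.0385). Without control 1, 2 or 3 the adjusted p was 0.0528, 0.0851 and 0.0984, and without dKO 1 or dKO 3 it was 0.0983 and 0.0575. The call was also lost with equal medians over the tested genes (adjusted p = 0.0505). Tgfbr2, which binds TGF-beta first, read 9.51, 10.01 and 10.20 on the control arrays and 10.42, 10.55 and 10.13 on the dKO arrays (log2 change 0.46, SE 0.21, adjusted p = 0.16), and control 3 lay above dKO 3. With its probe sets averaged the Tgfbr2 change was 0.13 (adjusted p = 0.512), and its other tested probe set changed by -0.077. That average also includes a probe set under 4 on every array. Acvr2a, a receptor for activins and BMPs, read 11.24, 11.14 and 11.26 on the control arrays and 11.22, 11.09 and 10.36 on the dKO arrays (log2 change -0.32, SE 0.23, adjusted p = 0.354). dKO 3 alone was low, and without it the change was -0.058. Acvr2b, a close relative of Acvr2a, read 6.73, 6.44 and 6.42 on the control arrays and 6.44, 6.50 and 6.17 on the dKO arrays (log2 change -0.15, SE 0.16, adjusted p = 0.533), with the groups overlapping. The co-receptor gene Tgfbr3 (betaglycan), which presents TGF-beta2 to the kinases, read 11.78, 11.77 and 11.67 on the control arrays and 11.92, 11.80 and 11.77 on the dKO arrays (log2 change 0.09, SE 0.13, adjusted p = 0.668). The Tgfbr3 groups overlapped, and averaging the probe sets gave -0.01.

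**Figure D3:**
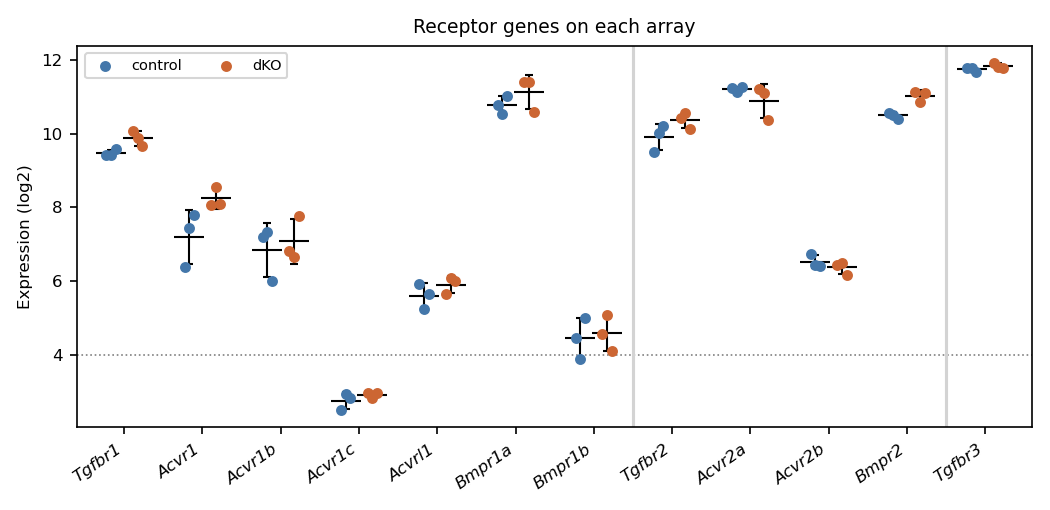
Log2 expression of the 12 receptor genes on each array, control in blue and dKO in orange, with type I receptors on the left, type II receptors in the middle and the co-receptor Tgfbr3 on the right. Points are arrays, marks and bars the mean and SD (n = 3), and the dotted line the limit of 4. The dKO values of Bmpr2, from 10.85 to 11.13, lie above its controls, and Acvr1c is under the limit on every array.

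With 1 probe set per gene, Smad3 had the largest change of the 34 tested members. Averaged over its probe sets, its change was 1.05, below those of Bmp6 (1.32) and Tgfb3 (1.17, not called). Smad2, the other Smad of TGF-beta and activin receptors, did not pass the test. Smad3 read 8.19, 7.93 and 7.86 on the control arrays and 9.74, 9.61 and 9.59 on the dKO arrays (log2 change 1.65, SE 0.15, adjusted p = 0.000285). The dKO arrays lay within 0.14 of each other and at least 1.40 above the highest control. With any array left out the change stayed between 1.59 and 1.75, with an adjusted p of at most 0.00241. Smad2 read 9.92, 10.07 and 10.25 on the control arrays and 10.06, 10.11 and 9.42 on the dKO arrays (log2 change -0.22, SE 0.21, adjusted p = 0.509), with the groups overlapping and dKO 3 lowest, and its change was 0.0057 without dKO 3. The log2 value of Smad3 minus that of Smad2 within each array was -1.73, -2.14 and -2.39 in control and -0.32, -0.50 and 0.18 in dKO, so it was higher in dKO by 1.87 (SE 0.28). Its size depends on the probe sets used: with probe sets averaged, Smad3 changed by 1.05 and Smad2 by -0.15. The pair of Smad3 and Smad2 was chosen with the results known, so the difference is a description and carries no test. Probe sets of different genes differ in brightness, so the change of such a difference can be read and its level cannot.

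The BMP Smads and the common Smad did not pass the test. Smad1 read 10.05, 10.04 and 10.08 on the control arrays and 10.37, 10.30 and 10.19 on the dKO arrays (log2 change 0.23, SE 0.13, adjusted p = 0.251), and the dKO arrays were all above the controls by a small margin. Smad5 read 9.58, 9.35 and 9.36 on the control arrays and 9.14, 9.43 and 8.46 on the dKO arrays (log2 change -0.42, SE 0.24, adjusted p = 0.261), with dKO 3 far below the others and a change of -0.14 without it. Smad9, also called Smad8, read 4.79, 4.64 and 4.66 on the control arrays and 4.38, 4.62 and 4.38 on the dKO arrays (log2 change -0.23, SE 0.14, adjusted p = 0.28), near the limit. Smad4, the partner shared by both branches, read 9.91, 9.94 and 10.12 on the control arrays and 10.47, 10.23 and 10.38 on the dKO arrays (log2 change 0.37, SE 0.14, adjusted p = 0.101), with all dKO values above the controls. Of the inhibitory Smads, which the pathway itself induces in many cells, Smad6 was under 4 on all 6 arrays and Smad7 reached 4 on 2 of the 6, both dKO. Smad7 read 3.87, 3.43 and 3.93 on the control arrays and 3.95, 4.05 and 4.30 on the dKO arrays, just outside the limit for testing, as did Bmp8a at 3.78, 3.98 and 4.04 on the control arrays and 3.89, 3.96 and 4.16 on the dKO arrays. Just inside it were Gdf10, Gdf3 and Inhbb, each at or above 4 on 3 arrays. The symbol patterns also took in 2 genes that are no ligand, receptor or Smad. Bmp1, a protease that processes collagen and frees latent ligands, read 7.85, 7.40 and 8.23 on the control arrays and 8.42, 8.18 and 8.05 on the dKO arrays (log2 change 0.39, SE 0.22, adjusted p = 0.261). Bmp2k, a kinase induced by BMP2, read 7.84, 8.47 and 9.19 on the control arrays and 8.91, 8.63 and 8.43 on the dKO arrays (log2 change 0.16, SE 0.32, adjusted p = 0.763). The Bmp2k change was -0.17 without control 1, and -0.30 when its probe sets were averaged.

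Other probe sets of the same genes bear on these calls. Of 96 probe sets of the 45 genes, 71 passed the limit and 9 were called (12.7%), adjusted over the 27718 probe sets tested, of which 18.8% were called. 6 of the 21 genes with several tested probe sets had changes of both signs among them, and 0 genes had probe sets called in opposite directions. The 6 were Acvr1b, Bmp2k, Bmp7, Tgfbr1, Tgfbr2 and Tgfbr3. The 3 Smad3 probe sets had changes of 1.65, 0.83 and 0.67 (adjusted p = 0.000383, 0.00914 and 0.0533), and on each of them all dKO arrays exceeded all controls. Averaged over the 3, the Smad3 change was 1.05. Of the 4 Tgfb2 probe sets, the brightest and the next changed by 0.999 and 1.42 and were called, while the other two had changes of 0.61 and 0.46 and were not. The second of 3 Acvr1 probe sets read 6.41, 6.84 and 6.70 on the control arrays and 7.53, 7.62 and 7.74 on the dKO arrays, a change of 0.98 (SE 0.16, adjusted p = 0.00455). On that probe set control 1 stood much closer to the other controls than on the brightest one, and the dKO arrays were higher by at least 0.69. The third, dimmest Acvr1 probe set had a change of 0.33 (adjusted p = 0.283). A second Smad1 probe set, read as 9.75, 9.99 and 9.96 on the control arrays and 10.40, 10.30 and 10.46 on the dKO arrays, changed by 0.49 (adjusted p = 0.0479), and a second Bmp1 probe set by 0.67 (adjusted p = 0.0469). Of the 3 Bmpr2 probe sets, only the brightest was called. Bmp6, Tgfb3 and Gdf10 each have 1 probe set above the limit, so their values have no such check, and limma's adjusted p over all probe sets for Gdf10 was 0.0587, which missed the threshold.

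**Figure D4:**
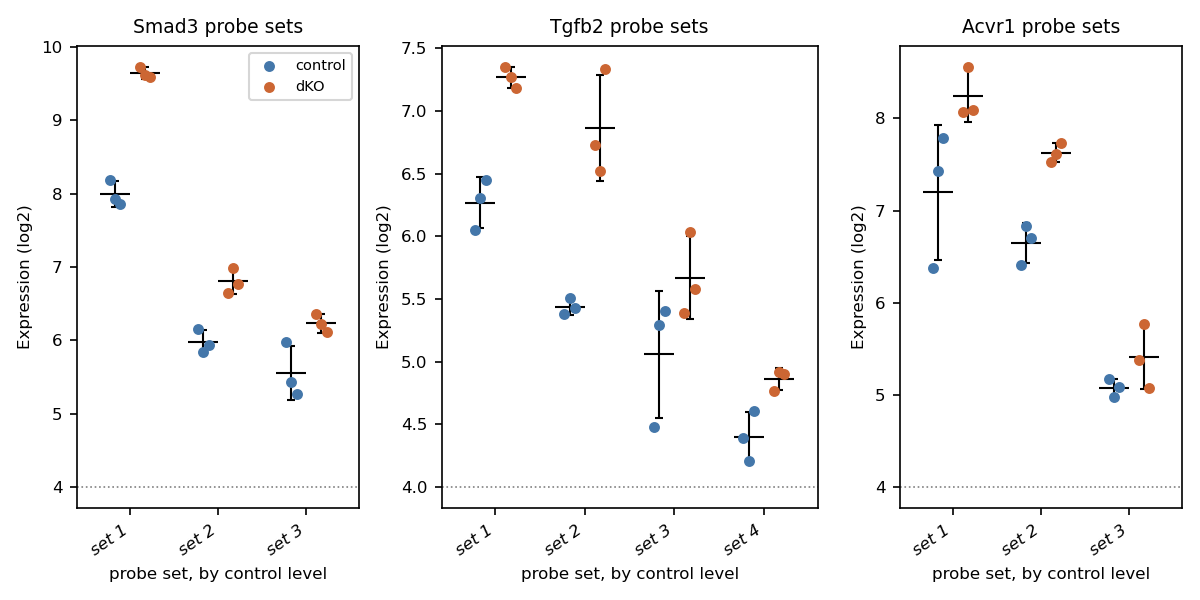
Log2 expression on each array for the tested probe sets of Smad3, Tgfb2 and Acvr1, ordered from left to right by their control level, with control in blue and dKO in orange. Points are arrays, and marks and bars are the mean and SD (n = 3). On all 3 Smad3 probe sets the dKO arrays lie above the controls, and the control values of the first Acvr1 probe set run from 6.38 to 7.78 against 6.41 to 6.84 on the second.

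The 250 bases before the annotated start of Smad3, Tgfb2 and Bmp6, the called members with the largest changes, are shown because these genes rose together. They are from RefSeq on GRCm38.p6, at chr9:63757995-63758244 (minus strand), chr1:186705990-186706239 (minus strand) and chr13:38345466-38345715 (plus strand), each written 5′ to 3′ on the strand of the gene. The Tgfb2 start used there lies inside the annotated span of the gene. Capitals mark matches, on either strand, to the Smad box CAGAC and to the GC box GGGCGG.
Smad3: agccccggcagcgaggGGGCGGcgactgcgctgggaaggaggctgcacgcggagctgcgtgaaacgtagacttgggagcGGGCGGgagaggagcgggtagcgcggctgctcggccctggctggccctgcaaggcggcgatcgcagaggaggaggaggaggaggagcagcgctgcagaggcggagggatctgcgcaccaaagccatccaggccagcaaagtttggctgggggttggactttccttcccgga
Tgfb2: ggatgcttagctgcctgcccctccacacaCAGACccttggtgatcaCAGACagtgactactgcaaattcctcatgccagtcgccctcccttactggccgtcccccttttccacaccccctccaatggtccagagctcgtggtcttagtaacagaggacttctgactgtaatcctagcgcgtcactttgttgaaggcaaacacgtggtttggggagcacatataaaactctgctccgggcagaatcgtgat
Bmp6: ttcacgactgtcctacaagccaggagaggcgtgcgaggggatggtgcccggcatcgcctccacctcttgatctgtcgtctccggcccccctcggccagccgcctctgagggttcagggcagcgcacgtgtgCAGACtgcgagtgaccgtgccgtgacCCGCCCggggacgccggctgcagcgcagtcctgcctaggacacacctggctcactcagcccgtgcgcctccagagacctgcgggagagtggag
The Smad3 window held 2 GC boxes and 0 Smad boxes, the Tgfb2 window 2 Smad boxes and 0 GC boxes, and the Bmp6 window 1 of each. The palindrome GTCTAGAC and the GC-rich element GGCGCC, which were also searched on both strands, were in none of these 3 windows. None of these 4 motifs contains another. Among all 32851 windows of this length in the table, 42.2% held the Smad box, 32.7% the GC box, 9.59% GGCGCC and 0.167% the palindrome. Promoter windows were matched for 33 of the 45 members, and 15 of them held the Smad box and 22 the GC box, which was in 54.0% of the windows of all tested genes. A match is a description of the letters and not a site of binding.

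Extracellular antagonists and other proteins that bind these ligands changed in both directions. Of 20 tested, 7 rose and 3 fell (50% called, against 22.0% of all genes), with a median log2 change of 0.48. This list and those described after it were chosen with earlier results of these data known, so their shares called are descriptions only. Dcn, among the genes that rose, is also counted as a fibroblast marker. Fst encodes follistatin, which binds and neutralises activins. It fell from 9.17, 9.45 and 9.27 to 7.61, 6.79 and 6.81 (log2 change -2.23, SE 0.23, adjusted p = 0.00056), 4.68-fold, and both of its probe sets were called. All dKO arrays were below the lowest control, with a gap of 1.56, with dKO 1 the highest of them. Dand5, an antagonist of Nodal and BMPs, fell from 7.99, 7.92 and 7.47 to 6.54, 6.59 and 6.43 (log2 change -1.27, SE 0.17, adjusted p = 0.00156). Chrdl1, a chordin-like BMP antagonist, rose from 4.48, 4.94 and 5.43 to 6.48, 6.32 and 7.24 (log2 change 1.73, SE 0.30, adjusted p = 0.00498), with 4 of 4 probe sets called. Bgn, the matrix proteoglycan biglycan that binds TGF-beta, rose from 9.40, 9.66 and 10.24 to 10.72, 10.99 and 10.98 (log2 change 1.13, SE 0.22, adjusted p = 0.00836). These genes did not overlap between the groups, and their calls held with any array left out. The antagonist genes Nog and Grem1 were under the limit on at least 4 arrays and were not tested. With control 2 or dKO 2 left out, 6 genes of the list were called.

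Genes for the storage and activation of latent TGF-beta and for co-receptors mostly had positive changes, 13 of 17, against 50.6% of all genes. Of the 17, 7 rose and 1 fell (47.1% called, against 22.0%). Among the 7 is Rgma, a BMP co-receptor gene, which was under the limit on all control arrays and was tested only because its dKO arrays reached it. The median log2 change was 0.61 in this list. Ltbp1, which anchors latent TGF-beta in the matrix, rose from 7.92, 7.87 and 8.27 to 9.50, 9.30 and 9.78 (log2 change 1.51, SE 0.18, adjusted p = 0.000896), and both probe sets above the limit were called. Neo1, which encodes neogenin, a receptor for the BMP co-receptors of the repulsive guidance molecule family, rose from 9.69, 9.48 and 9.42 to 10.69, 10.56 and 11.22 (log2 change 1.29, SE 0.20, adjusted p = 0.00268), with 3 of 5 probe sets called. Furin, the protease that cleaves the precursors of TGF-beta ligands, read 7.30, 7.81 and 7.40 on the control arrays and 8.46, 8.05 and 9.51 on the dKO arrays (log2 change 1.17, SE 0.34, adjusted p = 0.0435). dKO 3 was far above the other dKO arrays, and the call of Furin was lost without control 1, control 2, control 3 or dKO 1 (adjusted p = 0.121, 0.0631, 0.1 and 0.0763). Without dKO 3 the change of Furin was 0.76 and still called (adjusted p = 0.0478). The gene that fell was Tll2, a protease related to Bmp1, which read 5.33, 5.98 and 5.50 on the control arrays and 4.64, 3.997 and 4.11 on the dKO arrays (log2 change -1.35, SE 0.23, adjusted p = 0.00459).

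Of 33 intracellular regulators and Smad partners, 2 were called higher and 3 lower (15.2% called, against 22.0%), and the median log2 change was 0.013. With an intensity trend in the fit 9 were called (27.3%, against 23.0% of all genes), so this share lay below or above that of all genes depending on the fit. Pmepa1, a TGF-beta-induced protein that dampens Smad2 and Smad3 signalling, rose from 10.26, 10.10 and 9.86 to 11.16, 11.04 and 11.24 (log2 change 1.07, SE 0.15, adjusted p = 0.00198), with 2 of 3 probe sets called. The ubiquitin ligase genes Wwp2 and Wwp1, whose products act on Smads and other targets, fell. Wwp2 went from 8.40, 8.77 and 8.62 to 7.46, 7.66 and 7.49 (log2 change -1.06, SE 0.15, adjusted p = 0.00197, 3 of 5 probe sets called) and Wwp1 from 12.40, 12.22 and 12.30 to 11.48, 11.32 and 11.44 (log2 change -0.89, SE 0.13, adjusted p = 0.00245, 3 of 3 called). For both genes every dKO array was below every control. Tab1, a partner of the kinase TAK1, also fell (log2 change -0.59, adjusted p = 0.0216), not called when control 2, control 3 or dKO 1 was dropped (highest adjusted p 0.0803). Skil, a corepressor of Smads, read 7.89, 8.54 and 8.68 on the control arrays and 9.14, 9.01 and 9.08 on the dKO arrays (log2 change 0.71, SE 0.21, adjusted p = 0.0465), and neither of its probe sets was called when adjusted over all probe sets. Its call was lost with any array left out except control 3 (adjusted p up to 0.123), and its change was 0.47 without control 1. Zeb2, a Smad-binding repressor that Schwann cells need for myelination, read 12.21, 11.86 and 11.79 on the control arrays and 11.56, 11.44 and 11.59 on the dKO arrays (log2 change -0.42, SE 0.16, adjusted p = 0.0937). The 3 dKO values of Zeb2 were below the controls. It was named after its values were seen. Without dKO 1, 3 genes of the list were called.

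Genes commonly used as readouts of the pathway included genes that rose and genes that fell: 7 of 26 were higher and 3 lower (38.5% called, against 22.0%) and a median log2 change of 0.18. Timp1, a metalloproteinase inhibitor, read 4.85, 5.66 and 6.16 on the control arrays and 6.65, 7.16 and 7.25 on the dKO arrays (log2 change 1.46, SE 0.32, adjusted p = 0.0138), a call lost without dKO 2 (adjusted p = 0.0504). Lox, which crosslinks collagen, rose from 7.75, 7.85 and 8.67 to 9.35, 9.35 and 9.08 (log2 change 1.17, SE 0.25, adjusted p = 0.0115), with 1 of 2 probe sets called. Cdkn2b, the cell cycle inhibitor gene p15 that TGF-beta induces in many cells, rose from 7.50, 7.43 and 7.75 to 8.37, 8.52 and 9.18 (log2 change 1.13, SE 0.22, adjusted p = 0.00869). Cdkn1a, which encodes the cell cycle inhibitor p21, fell from 12.20, 11.30 and 11.73 to 9.30, 9.94 and 9.38 (log2 change -2.21, SE 0.26, adjusted p = 0.000879). These cell cycle inhibitors therefore changed in opposite directions. The BMP readouts of the Id family were split: Id4 rose by 0.54 (adjusted p = 0.0204), not called when control 1, control 3, dKO 1 or dKO 2 was dropped (highest adjusted p 0.0678), while Id1, Id2 and Id3 had changes of -0.39, -0.83 and 0.26 and did not pass. The Id genes were named after their values were seen. With dKO 2 left out, 6 genes of the list were called. Col1a1, Col3a1 and Acta2 of this list, which were not called, are also counted as markers of fibroblasts or of pericytes and smooth muscle.

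**Figure D5:**
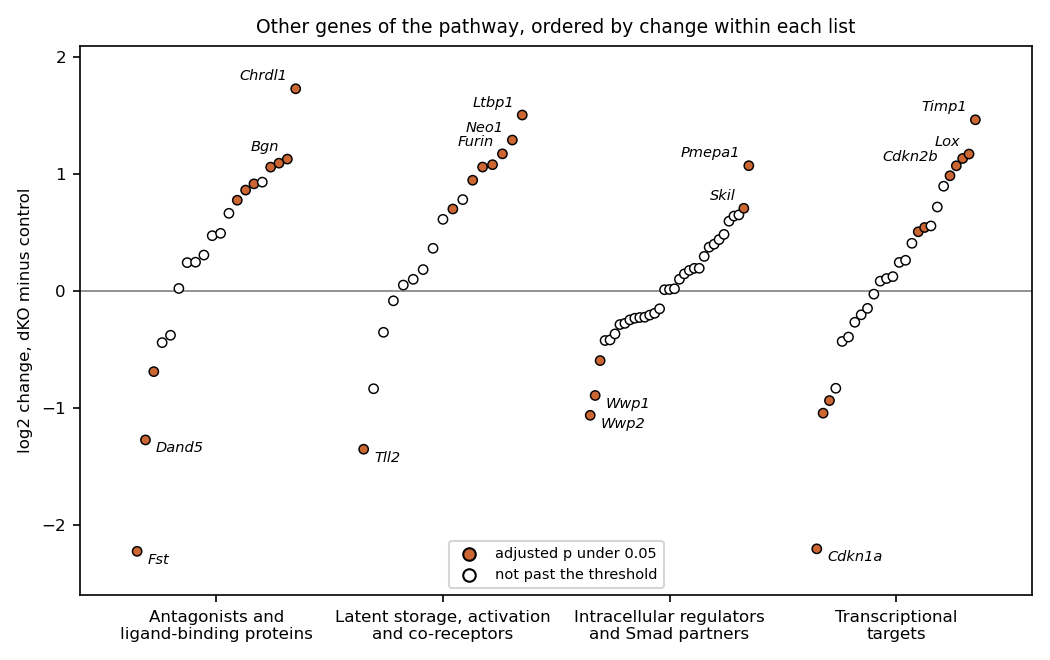
Log2 change, dKO minus control, of the tested genes of 4 lists of other pathway genes, ordered by change from left to right within each list. Each point is a gene and filled points passed an adjusted p under 0.05, with up to 4 called genes of the largest absolute change labelled in each list. Fst and Cdkn1a have the lowest changes, -2.23 and -2.21, and Chrdl1 the highest, 1.73.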

How the data were processed

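Total RNA of the 6 samples had been hybridised to Affymetrix Mouse Genome 430 2.0 arrays. The authors deposited log2 values for each probe set, from 1.66 to 14.94, and the scale was read from the values. GCOS 1.2 and GCRMA appear, without settings, among the tools in the submitters' processing notes. Every array had a median of 5.77 over all probe sets, so a shift shared by all genes cannot be read. Of 45101 probe sets, 34958 had 1 gene symbol in the platform annotation, 932 several and 9211 none here. Symbols were updated by gene ID through RefSeq (GRCm38.p6).

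The probe set with the highest mean stood for a gene. Genes at log2 4 or more on at least 3 arrays were tested with limma 3.58.1 in R 4.3.3 (lmFit, eBayes, 2 groups, no covariates). The fit was also run on simulated data with independent noise, as a check of the code and not of the calls reported here. Members were named by role and change, and up to 4 called genes by change in each of 4 lists. Zeb2, Tab1, the Id genes and single probe sets were named after their values were seen. Correlations between members, also part of the naming rule, are not given because the arrays form 2 separate groups. Members, lists and 9 marker sets were chosen with earlier results of these data known. Dcn, Col1a1, Col3a1 and Acta2 are each on both a pathway and a marker list. The sources used here give no scan date or other batch. Alternatives were a limit of 6 or none, all probe sets of a gene averaged (those under the limit included), arrays set to equal medians over the tested genes, an intensity trend, a replicate block and each array left out.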

Additional observations from a re-analysis of the deposited data

How the results depend on the processing

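Under the 12 alternatives, 2 of the 5 called members, Smad3 and Tgfb2, stayed called in all, and 22 members were called neither as reported nor in any alternative. With equal medians over the tested genes 3 members were called higher and 1 lower, and with an intensity trend 1 was called lower (Gdf3 in both). The median change of the tested members was 0.37 under a limit of 6, 0.16 with no limit and 0.16 with equal medians over the tested genes. Of the intracellular regulators, 9 were called with an intensity trend. With an array left out, 2 to 6 members were called higher and 0 to 1 lower (1 without dKO 3), and their median change was 0.16 to 0.31. The same settings gave 2178 to 2916 genes called in all, 6 to 9 of the antagonists (6 without control 2 or dKO 2), 3 to 5 of the intracellular regulators (3 without dKO 1), 6 to 8 of the storage genes and 6 to 12 of the targets (6 without dKO 2).

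Samples with the same replicate number did not deviate together (correlations of 0.04, -0.12 and -0.23 for replicates 1, 2 and 3), so the numbers were not taken as pairs. With a replicate block, 2557 genes, 4 members and 3 intracellular regulators were called. Bmpr2 and Gdf10 were not called with the block (adjusted p = 0.0779 and 0.0862), and Acvr1 was.

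The sign of a change that was not called turned for 8 genes. Leaving out arrays gave -0.19 to 0.48 for Acvr1b, -0.17 to 0.50 for Bmp2k, -0.46 to 0.77 for Bmp5, -0.14 to 0.41 for Bmpr1b, -0.078 to 0.26 for Inhbb, -0.34 to 0.0057 for Smad2 and -0.0195 to 0.093 for Tgfb1. Averaged probe sets gave -0.30 for Bmp2k and -0.01 for Tgfbr3, and equal medians over the tested genes gave -0.035 for Tgfb1. The cause of these changes was not tested. Values near the limit of 4, as for the GDF genes, Inhbb, Bmpr1b and Smad9, carry little information on direction.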
